A study of Caenorhabditis elegans with 3 samples.

Results

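The Hedgehog-related and patched-related genes of the nematode Caenorhabditis elegans are 2 groups of related genes. Members were chosen by name: array rows annotated to a single symbol beginning with wrt- (warthog), grd- (groundhog), grl- (ground-like), hog- (hedgehog domain), ptr- (patched-related) or ptc- (patched) and a digit, with a value on all 3 arrays. There were 68 of them among 19293 genes tested. They divide into 47 ligand-like genes (10 wrt, 13 grd, 23 grl and hog-1) and 21 patched-like genes (20 ptr and ptc-1). Of 69 symbols found by the rule, only ptr-5 was set aside for missing values, with a single measured log2 ratio of -0.94 in replicate 3. The RefSeq gene table lists 87 symbols with these prefixes, and the 18 without a row of their own, ptc-3 among them, were not analysed here.

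The samples were 3 two-colour arrays, each with mRNA of a preparation of adult hermaphrodites in channel 2 and a mixed wild-type reference in channel 1. The adults carry the marks TP12 and "w/ emb 3" in the labels, taken to mean that they held embryos, and the labels give no strain, genotype, age or treatment for them and no composition for the reference. The preparations are numbered 1 to 3 and are called replicates here. Nothing in the labels says that they came from separate cultures, so the p-values measure only the spread between these arrays, which may be technical.

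Hedgehog is a secreted, lipid-modified signal in most animals, and Patched is the membrane protein that receives it. Nematodes have no canonical Hedgehog ligand and no recognised Smoothened, the membrane protein that passes the signal on elsewhere. They have instead large families of secreted proteins with Wart, Ground or Ground-like domains, some followed by the self-cleaving Hog domain of Hedgehog. Their patched-related proteins carry a sterol-sensing domain and, where studied, act mostly in the epidermis and in cuticle formation and moulting. The exception known best is ptc-1, needed for cell division in the germ line. Many genes of both groups are transcribed in step with the larval moults. The comparison here is of adults taken to hold embryos with a pool of unstated composition. It therefore cannot show by itself where their transcripts stand once moulting is over.

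The values are log2 ratios of the channels. The direction of the ratio is not stated, and adults over reference is called likely, from the channel order in the labels and from oocyte and eggshell genes, of which 7 of 8 were higher (median 1.29) and which are therefore no evidence of their own direction. Under the opposite direction, "higher" and "lower" exchange places throughout. Of 3 yolk genes measured, vit-2 was higher at 0.99 ± 0.41 (SD, n = 3) and the other two did not pass. The arrays had 19904, 19832 and 19839 measured values, and their number limits the precision. Replicate 1 stood apart: across rows its values correlated at 0.676 and 0.658 (Pearson's r) with replicates 2 and 3, against 0.892 between those. When the rows were cut into 32 consecutive blocks, the block medians of replicate 1 ran from -0.35 to 0.39, against -0.12 to 0.23 and -0.12 to 0.21 for replicates 2 and 3. Results are therefore also given without replicate 1.

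Many members were lower in the adults and only ptr-2 was higher. In limma's fit over all genes, at a Benjamini-Hochberg adjusted p under 0.05, 24 of 68 members were lower (35.3%), 1 was higher (1.47%) and 43 did not pass. Over all genes tested, 13.7% were lower and 14.8% higher, so the share of lower members was above the background and that of higher members below it. The median log2 ratio was -0.22 for the members and 0.02 for all genes. A negative mean was found for 54 members (79.4%, against 48.1% of all genes). On every array, 37 of 68 members were negative, against 5257 of the 19293 genes tested. A mean of -1 or below, which is a halving or more, was reached by 10 members (14.7%, against 4.88%). Without replicate 1, 31 members were lower and 2 higher, with backgrounds of 20.1% and 22.2%. Values from whole worms cannot tell fewer cells of a type from less RNA per cell, and a ratio says nothing of a transcript's absolute level. Nor can they tell RNA of the adults from RNA of embryos held in them, for any member.

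**Figure D1:**
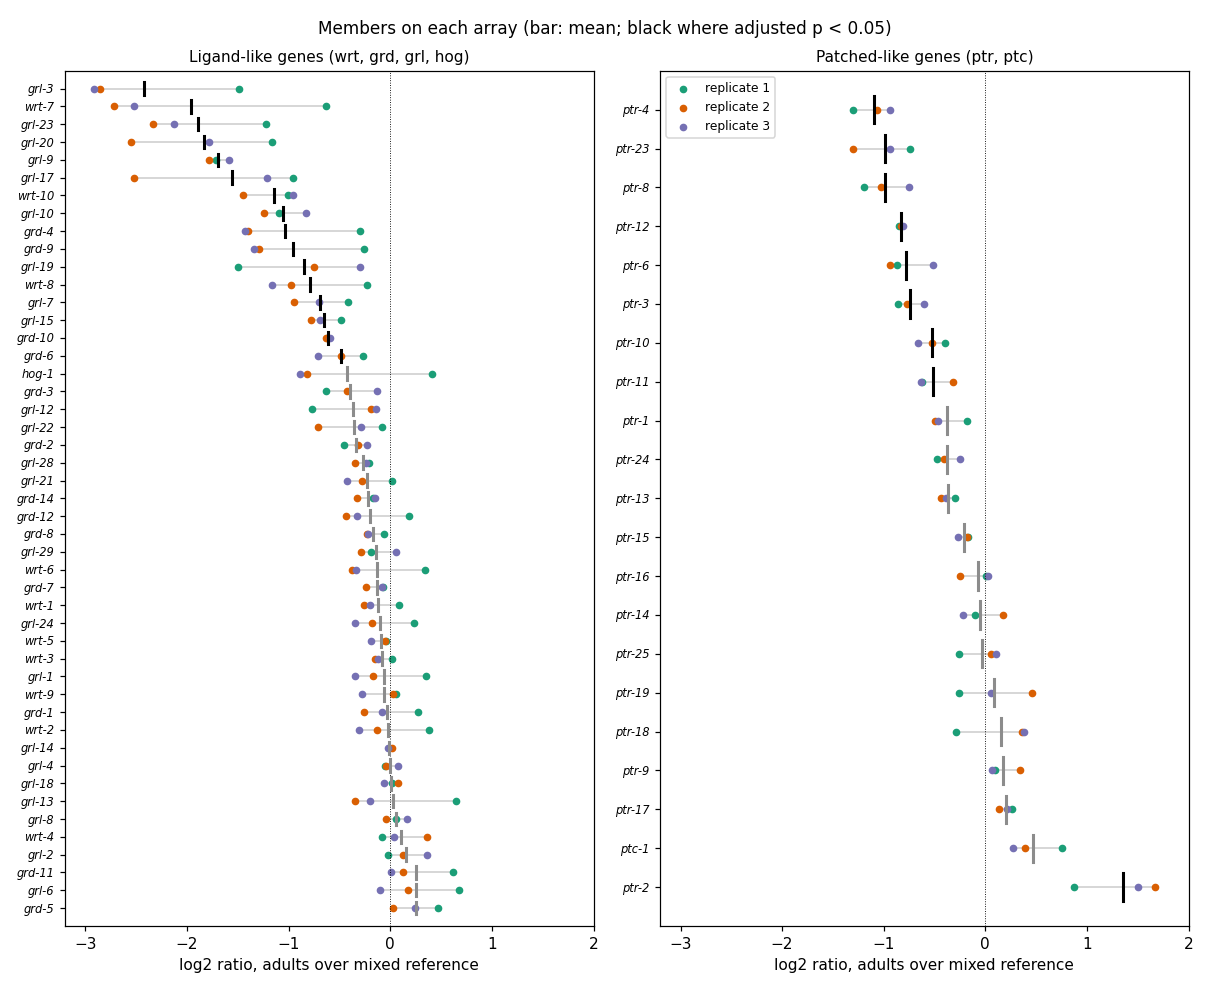
Log2 ratio of adults over the mixed reference (x axis) for each of the 68 members (y axis), with a point for each of the 3 arrays, a grey line over their range and a bar at the mean, black where the adjusted p was under 0.05. The lower members form the top of both panels, and ptr-2 is the only member whose 3 points all lie above 0.8.

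Ligand-like and patched-like genes gave similar shares of lower members. Among ligand-like genes 16 of 47 were lower (34.0%) and 0 higher, and among patched-like genes 8 of 21 were lower (38.1%) and 1 higher. Their medians were -0.22 and -0.37. The difference between the classes was not tested, since members are not replicates. A mean of -1 or below was found for 9 ligand-like genes (19.1%) and for ptr-4 alone among the patched-like genes (4.76%), against 4.88% of all genes. This count hangs on its limit, since ptr-8 and ptr-23 lay just above it at -0.99 and stood at -1.01 each with arrays centred on their median. The lowest patched-like mean was -1.10, and 7 ligand-like genes lay below that. The 0 higher ligand-like genes are a count from limma. An unadjusted limma p under 0.05 was found for 18 of 47 ligand-like genes, against 7520 of 19293 genes tested. All 18 had a negative mean, and they include the 16 called lower. By array, the ligand-like median was -0.08, -0.33 and -0.29 in replicates 1, 2 and 3, and the patched-like median -0.29, -0.32 and -0.27.

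**Figure D2:**
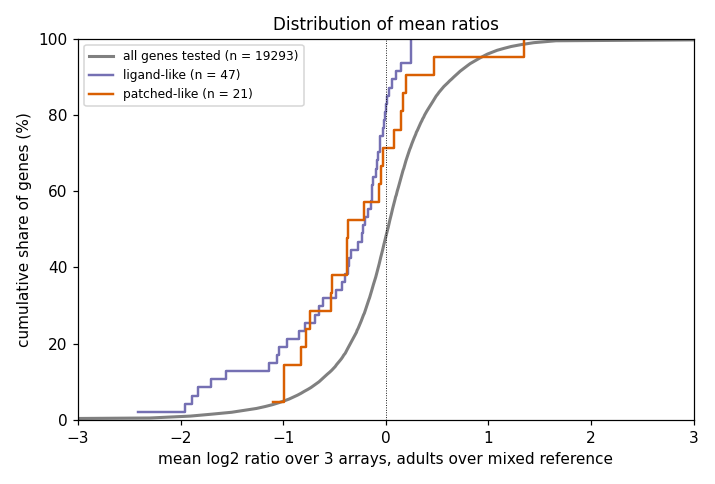
Cumulative share of genes in percent (y axis) against the mean log2 ratio over the 3 arrays (x axis) for all 19293 genes tested and for the 47 ligand-like and 21 patched-like members. Both member curves lie left of the curve of all genes over most of the range, and the ligand-like curve has the longer tail to the left, down to -2.42 for grl-3.

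The ground-like genes, which encode small secreted proteins with a Ground-like domain, held the lowest ratio of all members and 5 of the lowest 6. On 9 of the 23 the call was lower (39.1%, against 13.7% of all genes), the rest did not pass, and the median was -0.27. The lowest was grl-3, at -1.49, -2.86 and -2.92 in replicates 1, 2 and 3. Its mean was -2.42 ± 0.81 (SD, n = 3), or 5.37-fold lower (limma adjusted p = 0.000729), and it ranked 72nd from the bottom of all genes tested. Next among the ground-like genes came grl-23, at -1.22, -2.34 and -2.13, a mean of -1.89 ± 0.59 (limma adjusted p = 0.000866). Both genes were negative on every array, with the value nearest 0 in replicate 1.

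Replicate 1 was also nearest 0 for grl-20, which stood at -1.16, -2.55 and -1.78, with a mean of -1.83 ± 0.70 (SD, n = 3; limma adjusted p = 0.00155). The most even of the strongly lower genes was grl-9, at -1.72, -1.78 and -1.59. Its mean was -1.70 ± 0.10 (SD, n = 3), or 3.24-fold lower, with the smallest adjusted p of any member (0.000237, limma). In grl-17 a single array carried much of the size, with -0.96, -2.52 and -1.21 in replicates 1, 2 and 3.

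The other lower ground-like genes had smaller ratios. They were grl-10 at -1.06 ± 0.21, grl-19 at -0.85 ± 0.61, grl-7 at -0.69 ± 0.27 and grl-15 at -0.65 ± 0.15 (SD, n = 3). In grl-19 the order of the arrays was turned, with -1.50 in replicate 1 and -0.30 in replicate 3, and its mean without replicate 1 was -0.52. Without replicate 2, grl-7 (-0.56, limma adjusted p = 0.0984) and grl-15 (-0.59, 0.0784) no longer passed, nor did grl-15 without replicate 3 (-0.63, 0.0718).

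The 14 ground-like genes that did not pass had means from -0.37 to 0.25. The highest was grl-6, at 0.68, 0.17 and -0.10 in replicates 1, 2 and 3, so its arrays lay on both sides of 0. Without replicate 1, grl-22 stood at -0.50 (limma adjusted p = 0.0220) and grl-21 at -0.35 (0.0457), and both then passed.

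Warthog genes encode secreted proteins with a Wart domain, some with a Hog domain. Of 10 measured, 3 were lower (30.0%, against 13.7% of all genes), 7 did not pass and the median was -0.11. With 10 genes, 1 call more or less moves this share widely. The lowest was wrt-7, at -0.63, -2.72 and -2.52 in replicates 1, 2 and 3. Its mean was -1.96 ± 1.15 (SD, n = 3; limma adjusted p = 0.00579), the largest SD of any lower member. Without replicate 1 its mean was -2.62, and without replicate 2 or 3 it was -1.58 or -1.67.

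The gene wrt-10 was more even, at -1.01, -1.45 and -0.96, with a mean of -1.14 ± 0.27 (SD, n = 3; limma adjusted p = 0.00170). The value of wrt-8 was -0.23, -0.98 and -1.16, with a mean of -0.79 ± 0.50 (SD, n = 3; limma adjusted p = 0.0199). Like wrt-7 it was nearest 0 in replicate 1, and without replicate 3 it no longer passed (-0.60, limma adjusted p = 0.0915). The 7 others had means from -0.13 to 0.10.

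The highest warthog gene, wrt-4, stood at -0.08, 0.36 and 0.04 and did not pass. The lowest of those that did not pass was wrt-6, at 0.34, -0.38 and -0.34, and without replicate 1 its mean was -0.36 with a limma adjusted p of 0.0385. In wrt-6 replicate 1 lay on the other side of 0 from replicates 2 and 3. This was so for 5 of the 10 warthog genes and for 16 of the 68 members. Over all genes tested it was so for 4403 of 19293.

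Groundhog genes encode secreted proteins with a Ground domain. Of 13 measured, 4 were lower (30.8%, against 13.7% of all genes), 9 did not pass and the median was -0.22. With 13 genes this share also rests on few calls. The lowest, grd-4, stood at -0.30, -1.40 and -1.43 in replicates 1, 2 and 3, a mean of -1.04 ± 0.64 (SD, n = 3; limma adjusted p = 0.0121). A like pattern was seen for grd-9, at -0.26, -1.29 and -1.34, a mean of -0.96 ± 0.61 (limma adjusted p = 0.0147). For both genes replicates 2 and 3 were close together and replicate 1 far nearer to 0. Without replicate 1 their means were -1.42 and -1.32.

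The seam cells are the epidermal cells that divide at each larval stage, and grd-10, a gene whose promoter is used to mark them, was even over the arrays at -0.62, -0.63 and -0.59. Its mean was -0.61 ± 0.03 (SD, n = 3; limma adjusted p = 0.0117). Although the arrays were close, its call was lost without replicate 2 (-0.61, limma adjusted p = 0.0671) or replicate 3 (-0.63, 0.0733). The member nearest the threshold on the passing side was grd-6, at -0.27, -0.49 and -0.71, a mean of -0.49 ± 0.22 (limma adjusted p = 0.0422). It did not pass without replicate 2 (-0.49, 0.164), without replicate 3 (-0.38, 0.353) or with trend and robust variance (-0.49, 0.053).

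The 9 groundhog genes that did not pass had means from -0.40 to 0.25. The highest by its unrounded mean was grd-11, at 0.62, 0.12 and 0.01 in replicates 1, 2 and 3, all positive but uneven. For grd-12 the mean was -0.20 over all arrays and -0.38 without replicate 1 (limma adjusted p = 0.0329), when it passed. The gene hog-1, which encodes a Hog domain without a Wart or Ground domain, stood at 0.41, -0.82 and -0.89. Its mean of -0.43 did not pass (limma adjusted p = 0.251), and without replicate 1 it was -0.85 (0.00089). The block of rows that holds hog-1 had a median of 0.35 on the array of replicate 1 and -0.05 and -0.04 on the others. With each block centred, hog-1 stood at -0.52 (limma adjusted p = 0.0758).

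The patched-related genes encode membrane proteins with a sterol-sensing domain. Of 20 ptr genes, 8 were lower (40.0%, against 13.7% of all genes), ptr-2 was higher (5.0%, against 14.8%) and 11 did not pass. The median was -0.38. The lowest was ptr-4, which acts in the apical matrix of the epidermis and in moulting. It stood at -1.30, -1.07 and -0.94 in replicates 1, 2 and 3, a mean of -1.10 ± 0.19 (SD, n = 3; 2.15-fold lower, limma adjusted p = 0.00145). Close to it lay ptr-8 at -0.99 ± 0.22 and ptr-23 at -0.99 ± 0.29 (SD, n = 3).

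The gene with the smallest spread among the lower members was ptr-12, at -0.85, -0.83 and -0.81, a mean of -0.83 ± 0.02 (SD, n = 3; limma adjusted p = 0.00335). Means of -0.78 ± 0.22 for ptr-6 and -0.74 ± 0.13 for ptr-3 followed. Each of these 6 genes passed in every alternative except the fit without moderation of the variance. Unlike the large ratios of grl-3, wrt-7 and grl-23, those of ptr-4, ptr-8 and ptr-3 were farthest from 0 in replicate 1.

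The smallest ratios that passed among patched-related genes were those of ptr-10 and ptr-11. The values of ptr-10 were -0.40, -0.53 and -0.66, a mean of -0.53 ± 0.13 (SD, n = 3; limma adjusted p = 0.0252). Those of ptr-11 were -0.62, -0.32 and -0.63, a mean of -0.52 ± 0.18 (SD, n = 3; limma adjusted p = 0.0291). Without replicate 2 they stood at -0.53 and -0.63 and did not pass (limma adjusted p of 0.125 and 0.0561). The same held without replicate 3, at -0.46 and -0.47 (0.231 and 0.221). Just on the other side of the threshold, ptr-13 stood at -0.30, -0.44 and -0.39, a mean of -0.37 ± 0.07 (limma adjusted p = 0.0776). All 3 genes were negative on every array.

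The only higher member was ptr-2. It stood at 0.87, 1.67 and 1.50 in replicates 1, 2 and 3, a mean of 1.35 ± 0.42 (SD, n = 3). Its 95% interval was 0.92 to 1.77, from limma's moderated variance, which draws on all genes, and not from this SD. The mean is 2.54-fold higher in the adults (limma adjusted p = 0.00165), rank 266 from the top of all genes tested. No other member came near it: the next ptr gene, ptr-17, stood at 0.26, 0.13 and 0.21 and did not pass. The median of the block of rows that holds ptr-2 was -0.34, 0.15 and 0.13 on the 3 arrays, and with each block centred the mean was 1.37.

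The next highest member was ptc-1, the Patched homologue that acts in the germ line. It stood at 0.75, 0.39 and 0.27 in replicates 1, 2 and 3, positive on every array, with a mean of 0.47 ± 0.25 (SD, n = 3). The 95% interval, again from limma's moderated variance and not from this SD, ran from 0.12 to 0.82. The adjusted p of 0.0531 in limma was just above the threshold. It passed in limma with array weights, in which replicate 3 counted most (0.33, adjusted p = 0.0211). It also passed with rows lacking a single symbol left out (0.47, limma adjusted p = 0.0497). Over its alternatives with moderated variance the adjusted p ran up to 0.142. A row annotated to both ptc-1 and ptc-2 was not used.

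The 11 other patched-related genes had means from -0.38 to 0.20. Without replicate 1, ptr-1 (-0.48, limma adjusted p = 0.0119) and ptr-13 (-0.41, 0.0233) passed on the lower side and ptr-18 (0.37, 0.0351) on the higher side. The values of ptr-18 were -0.29, 0.36 and 0.38, with replicate 1 again opposite to the others.

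Several members lie beside each other in the genome, and their ratios could differ widely. In the gene order of the RefSeq table, 4 pairs of members had no protein-coding gene between them and 2 pairs had 1 or 2. The strongest contrast was between grl-9 and its neighbour grl-8. The latter stood at 0.06, -0.04 and 0.16 in replicates 1, 2 and 3, a mean of 0.06, while grl-9 was lower on every array. The difference of grl-9 minus grl-8 was -1.78, -1.74 and -1.75, a mean of -1.76 ± 0.02 (SD, n = 3).

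The adjacent warthog genes wrt-1 and wrt-10 also parted. On the arrays wrt-1 stood at 0.09, -0.26 and -0.20, and the difference of wrt-1 minus wrt-10 was 1.10, 1.19 and 0.76, a mean of 1.02 ± 0.23 (SD, n = 3). In the adjacent pair grd-14 and grd-4, the difference of grd-14 minus grd-4 was 0.13, 1.07 and 1.28, small in replicate 1 only. For grd-3 minus grd-10 it was 0.22 ± 0.23 (SD, n = 3) and for grl-28 minus grl-29 -0.12 ± 0.15, neither larger than its spread. Both wrt-7 and wrt-8, with 2 genes between them, were lower, and wrt-7 minus wrt-8 was -0.40, -1.74 and -1.36. With 3 arrays a sign-flip test of such a difference cannot go below a two-sided exact p of 0.25, so these differences are set against their SDs only.

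**Figure D3:**
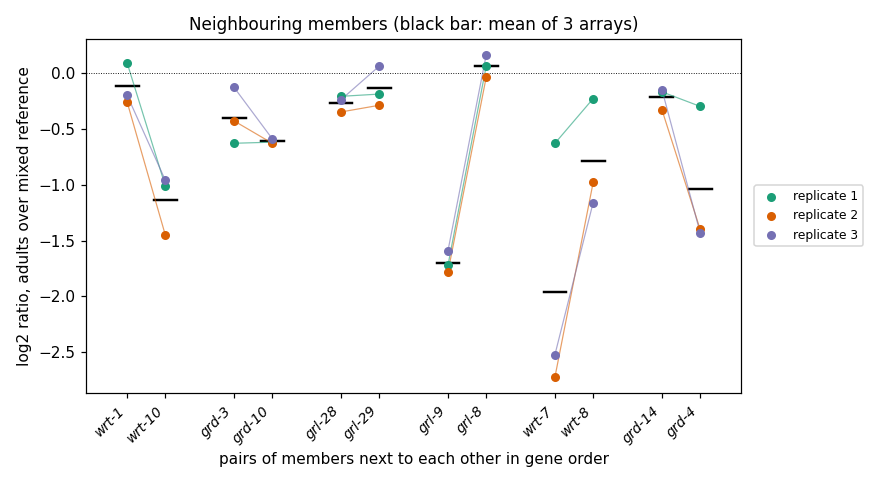
Log2 ratio of adults over the mixed reference (y axis) for the 6 pairs of members that lie next to each other, or with at most 2 genes between, in gene order (x axis); points and thin lines are the 3 arrays and black bars the means. The lines between grl-9 and grl-8 run side by side on all 3 arrays, with a difference of -1.76 ± 0.02.

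Other genes of the pathway and of the moult were taken from lists drawn up from general knowledge, with earlier results of these data known. Of 6 other sterol-sensing-domain genes measured, 2 were lower (33.3%, against 13.7% of all genes) and 0 higher (against 14.8%), with a median of -0.33. They were che-14, the homologue of Dispatched that acts in apical secretion by the epidermis, at -0.66 ± 0.12, and ncr-1, a homologue of the cholesterol transport gene NPC1, at -0.49 ± 0.09 (SD, n = 3). Neither passed without replicate 2 (-0.60 and -0.44) or without replicate 3 (-0.65 and -0.52). Of 2 genes for Hog relatives and ligand processing, qua-1, a Hog-domain gene needed for moulting, was lower at -0.73 ± 0.49 (limma adjusted p = 0.0274; 0.158 without replicate 2, where it stood at -0.50). Lists of 6 and 2 genes are too short for their shares to be read against those over all genes. The Gli homologue was not analysed here.

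Moulting and apical matrix genes gave a share of lower genes close to that of the members. Of 25 measured, 9 were lower (36%, against 13.7% of all genes), 0 higher (against 14.8%) and 16 did not pass. The median was -0.29. The 5 with the smallest p were lrp-1, a megalin-like receptor needed for moulting, at -0.95 ± 0.22, the astacin protease gene nas-37 at -0.89 ± 0.18, mlt-10 at -0.84 ± 0.32, bed-3 at -0.73 ± 0.30 and mlt-8 at -0.73 ± 0.37 (SD, n = 3). The 16 genes of the moulting list that did not pass had means from -0.61 for bli-5 to 0.50 for nhr-23. On the arrays nhr-23 was positive throughout, at 0.04, 0.92 and 0.55 (limma adjusted p = 0.0822). Of 7 epidermal transcription regulators, 1 was lower (14.3%) and 0 higher, with a median of -0.19. That gene was rnt-1, the Runx factor of seam cell division, at -0.55 ± 0.10, which did not pass without replicate 2 (-0.60) or replicate 3 (-0.50). The 6 others did not pass, with means from -0.63 to 0.27. The lowest, elt-3 at -0.63 ± 0.53 (SD, n = 3), lay just outside the threshold (limma adjusted p = 0.0535). With 7 genes, 1 call more or less moves this share widely. It is therefore not set against the background of 13.7% or the moulting list.

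The share of lower members was above the share over all genes in each of the 11 settings that made calls. The share of lower members ran from 26.5% without replicate 2 or without replicate 3 to 48.5% with array weights. Over all genes it was 9.34% without replicate 2, 10.3% without replicate 3 and 22.9% with array weights. The 25 members that passed also passed without replicate 1, and 19 of them passed without replicate 2 and 19 without replicate 3.

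**Figure D4:**
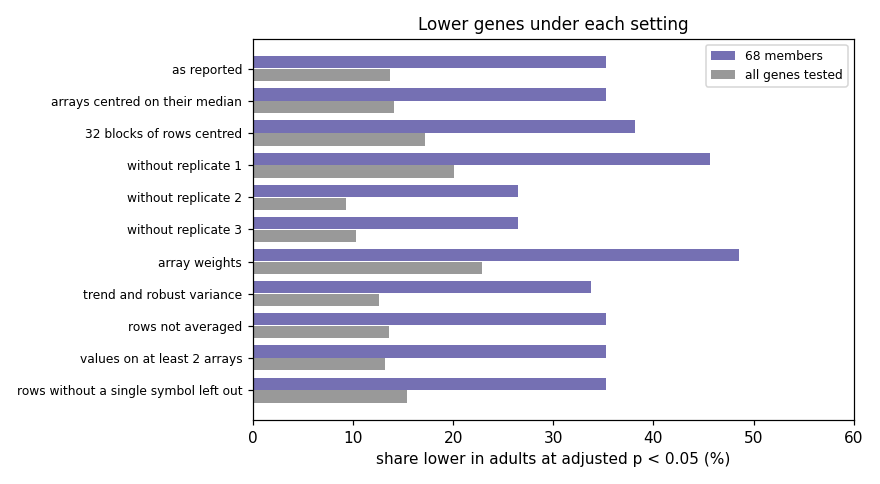
Share of genes lower in the adults at an adjusted p under 0.05, in percent (x axis), for the 68 members and for all genes tested under each setting (y axis); the fit without moderation of the variance, which called no gene, is left out. The bar of the members is longer than that of all genes in each of the 11 settings drawn.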

How the data were processed

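The values the authors deposited are log2 channel ratios. Base 2 follows from the data, since all 59554 values below 10 on the linear scale fell on a 0.001 grid (tolerance 0.01 of a step). The sources used here do not give dyes, scanner, background correction or normalisation. Of 20000 rows, 15655 had a single symbol in the platform annotation of 2007, 198 several and 4147 none. Symbols were updated through the RefSeq table of WBcel235, which matched all 68 members, and that table gave the gene order. Rows of a symbol were averaged. Among members only ptr-17 had more than 1 row, of which 1 had values. The mean of each gene was set against 0 with limma 3.58.1 (lmFit and eBayes, under R 4.3.3, two-sided, Benjamini-Hochberg over 19293 genes, threshold 0.05), with 2 residual and 5.86 prior degrees of freedom. The script was run on simulated arrays with equal and independent noise. These do not copy the departure of replicate 1, so the run cannot speak to it. The reference's own spread is not in the test. The 11 alternatives left out each replicate, centred arrays on their median or 32 blocks of rows on theirs, used array weights, trend and robust variance or no moderation of the variance, kept rows apart, tested genes with at least 2 values, or left out rows lacking a single symbol.

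Each member that passed is named. Values on every array are given for the 6 lower members with the smallest p, the ends of each family and those next to the threshold. Others were added after their values were seen. Members and lists were chosen with earlier results of these data known. The table held 0 columns of no sample.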

Additional observations from a re-analysis of the deposited data

How the results depend on the processing

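The count of lower members was 24, and 18 to 31 with each replicate left out in turn. For ligand-like genes that range was 12 to 21 and for patched-like genes 6 to 10, and for higher members, all patched-like, it was 1 to 2. With array weights, 3 members were higher, and 4413 of all genes were lower and 4874 higher. These weights were 0.28, 1.12 and 3.16 for replicates 1, 2 and 3, so the fit leaned on replicate 3. With rows lacking a single symbol left out, 2 members were higher. Without moderation of the variance 0 genes passed in limma, members included, with 4903 genes and 24 members at an unadjusted p under 0.05. The patched-like median of -0.37 was -0.31 with blocks centred or array weights, and -0.34 to -0.32 with each replicate left out. The mean of wrt-4 (0.10) ran from -0.02, without replicate 2, to 0.20. With arrays centred on their median, rows kept apart or genes with at least 2 values tested, 24 members were lower and 1 higher, and with trend and robust variance 23 and 1, when grd-6 did not pass. The causes were not tested. No paired analysis was possible because all arrays form 1 group. Spot signals were not analysed here, so no spot was set aside as dim or saturated.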
